A study of Mus musculus with 7 samples.

Results

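The genes described here are those of the dermal adipocyte, the fat cell that fills the layer under the dermis of mouse skin. The set names 35 genes, and its members are the genes with at least 1 probe set annotated to that symbol alone. Of the 35, 31 were measured, by 60 of 45037 probe sets, and 18193 genes were tested in all. Cfd, Plin1, Acsl1 and Adrb3 had no such probe set in the annotation used here and were not analysed. The tissue was the edge of a skin wound, taken from C57BL/6 mice at day 5, and each animal gave 1 array. The WT group for MFG-E8 held 3 animals, numbered 2, 3 and 4, and the KO group held 4, numbered 8, 10, 11 and 12. MFG-E8 is a secreted protein that links dying cells to phagocytes, and the arrays compare wound tissue with and without it. Sex, age and the construction of the KO allele are not given in the sources used here.

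Fat cells store triglyceride in a droplet coated by perilipins and CIDE proteins, fill it by taking up fatty acids and glucose, and empty it by stepwise lipolysis. The factors PPARγ (Pparg) and C/EBPα (Cebpa) drive their differentiation, and the mature cells release hormones such as adiponectin, leptin and resistin. In mouse skin the adipocyte layer thickens and thins with the hair cycle, and dermal adipocytes take part in wound repair.

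The promoters of the 3 measured hormone genes are shown because these genes, all products of mature fat cells, did not share 1 highest animal. Each is the 250 bases before the start, 5′ to 3′ on the gene's own strand, from RefSeq (build GRCm38.p6). Capitals mark a match to TTGCNNAA, a core of the C/EBP motif, searched on both strands.
Adipoq (chr16:23146286-23146535, plus strand): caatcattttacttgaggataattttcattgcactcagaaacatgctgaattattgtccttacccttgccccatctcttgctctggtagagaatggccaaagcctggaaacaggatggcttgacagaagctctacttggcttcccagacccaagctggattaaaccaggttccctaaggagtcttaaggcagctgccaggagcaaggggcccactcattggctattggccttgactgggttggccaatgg
Retn (chr8:3655520-3655769, plus strand): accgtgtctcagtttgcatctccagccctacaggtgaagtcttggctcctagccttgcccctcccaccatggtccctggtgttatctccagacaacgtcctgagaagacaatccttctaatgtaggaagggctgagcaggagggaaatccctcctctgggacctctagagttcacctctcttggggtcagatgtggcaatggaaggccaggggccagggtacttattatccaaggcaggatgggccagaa
Lep (chr6:29059971-29060220, plus strand): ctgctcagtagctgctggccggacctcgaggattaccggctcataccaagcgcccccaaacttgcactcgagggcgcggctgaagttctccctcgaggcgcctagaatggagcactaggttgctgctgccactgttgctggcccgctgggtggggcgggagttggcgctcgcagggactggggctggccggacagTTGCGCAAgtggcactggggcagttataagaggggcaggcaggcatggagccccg
The match in Lep begins 55 bases before the start, and the Adipoq and Retn windows hold none. Whether a match bears on the values of a gene was not tested. Among 30 such windows of the 22 measured members in the RefSeq table, 3 held the motif (10.0%), in Cidec, Lep and Pparg, against 9.6% of all 32851 windows. A direct repeat of AGGNCA with 1 base between the copies, the form bound by PPARγ with its partner RXR, was in 0 of the 30 windows and in 0.34% of all windows. TATAAA was in 2 of them (6.67%), in Cebpa and Pparg, against 12.4% of all windows. No motif overlapped another in the printed windows.

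All values below were read as centred log2 values, with 1 unknown value per probe set subtracted from every array. A value thus says how an animal stood relative to the others for that gene and carries no level. A difference (KO minus WT) is free of that constant. The stored digits allow a coarse level for the lowest array to be recovered, which was 8 or more on the log2 scale for 15 members and 4 to 8 for 16. Adipoq lay in the upper band and Lep, Retn, Cidec, Lipe and Pparg in the lower. Of all probe sets tested, 27.0% lay in the upper of these bands and 53.8% in the lower. A band therefore does not by itself show that a gene was detected, and a level alone does not show which cells made the RNA. In tissue RNA, fewer fat cells and less RNA per fat cell cannot be told apart. The targeted gene Mfge8 was lower in KO by -1.90 on the log2 scale (SE 0.16, limma adjusted p = 0.0169), with 0.91, 0.76 and 1.0 in WT animals and -0.64, -0.96, -1.14 and -1.30 in KO animals. Array medians lay between -0.0044 and 0.0123, and precision is bounded by having 7 arrays.

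The adipocyte genes did not separate the genotypes. None (0) of the 31 passed an adjusted p of 0.05 in limma, where 0.0275% of all genes did, and the lowest adjusted p was 0.412. Over single probe sets, 0 of the members' 60 passed in limma, against 0.0444% of all probe sets. At an unadjusted p under 0.05, 4 members were lower in KO, which is 12.9% against 5.94% of all genes, and 0 were higher against 2.27%. Of the members 23 had a negative difference (74.2%, against 49.1% of all genes), with a median of -0.22 against 0.0039 over all genes. Differences ran from -0.58 (Slc2a4) to 0.39 (Cidea). Only Angptl4 and Pde3b had groups that do not overlap, both lower in KO, which is 6.45% of members against 5.14% of all genes, while 0 members were without overlap in the other direction against 3.31%. The 95% intervals included 0 for 27 members and lay between -1 and 1 for 21, so for the other 10 a change of 2-fold is not outside the interval.

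**Figure D1:**
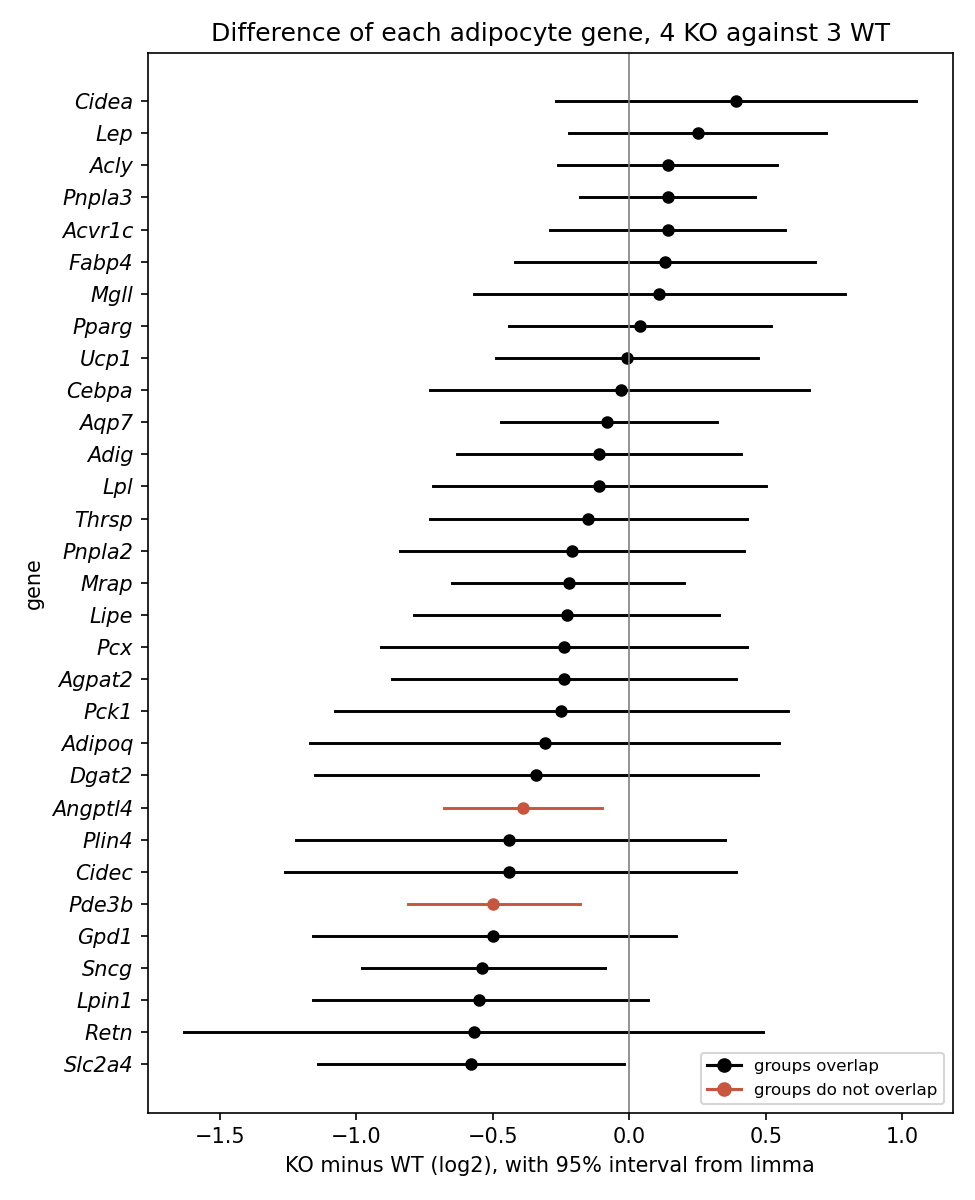
KO minus WT difference (log2, horizontal axis) of each of the 31 measured adipocyte genes, ordered by size, with the 95% interval from limma over 4 KO and 3 WT animals. Most points lie left of 0 but 27 intervals include it, and only the coloured Angptl4 and Pde3b have groups that do not overlap.

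The leaning towards lower values moved with single animals. KO animal 8 was the lowest of the 7 for 14 members (45.2%, against 23.4% of all genes) and KO animal 10 for 4 (12.9% against 8.88%). WT animal 3 was the highest for 13 (41.9% against 12.2%) and WT animal 2 the lowest for 6 (19.4% against 11.5%). The mean over the 31 members was -0.22, 0.28 and 0.08 in WT animals 2, 3 and 4, and -0.44, -0.32, 0.08 and 0.12 in KO animals 8, 10, 11 and 12. Thus KO animals 11 and 12 lay at or above WT animal 4, and WT animal 2 lay near KO animals 8 and 10. Without KO animals 8 and 10, whose hair genes stood far above those of the others, 13 of 31 members had a negative difference and the median was 0.04. It was -0.06 without WT animal 3 and -0.06 without KO animal 8, with 17 and 19 members below 0.

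**Figure D2:**
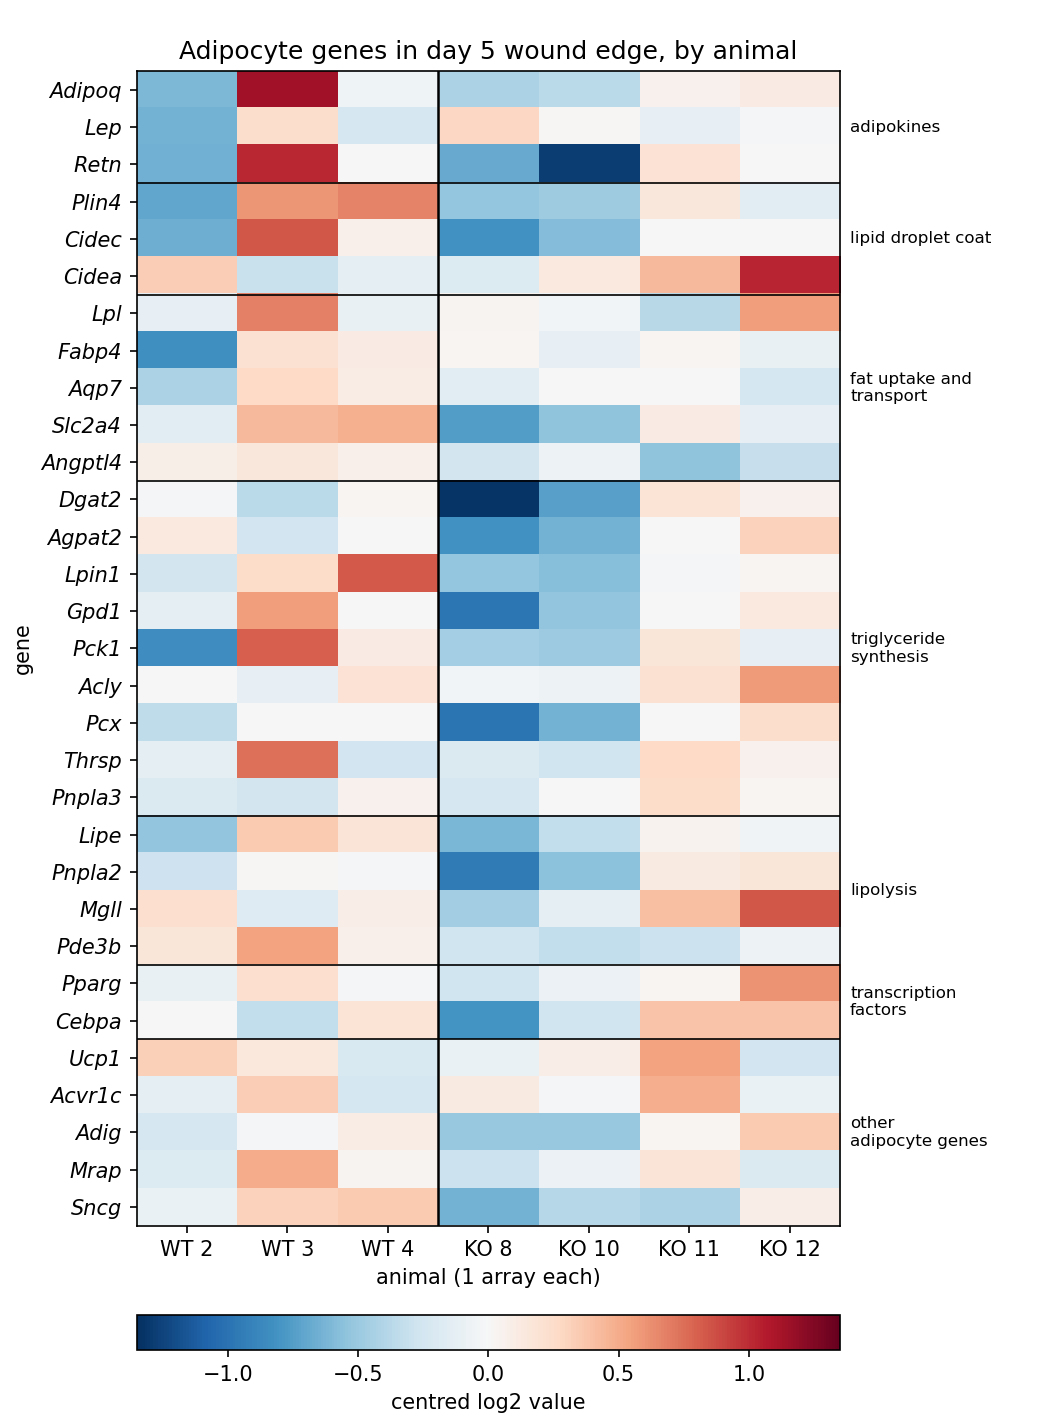
Centred log2 value (colour) of the 31 measured adipocyte genes (rows, grouped by role) in each animal (columns, WT left of the line and KO right of it). KO animals 8 and 10 are blue over most rows, WT animal 3 is red for Adipoq, Retn, Cidec and Pck1, and WT animal 2 is blue for the same genes.

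Lists for other cell types of skin differed in which animals were low. The skeletal muscle list, 20 genes of the muscle sheet under mouse skin, had negative differences in all 20, with means of -0.32, 0.51 and 0.19 in WT animals 2, 3 and 4 and -1.07, -0.71, 0.02 and -0.01 in KO animals 8, 10, 11 and 12. The animals with low adipocyte means were therefore those with low muscle means. The hair follicle list (22 genes) ran the other way, at 0.66, -1.49 and -2.40 in WT and 3.81, 3.85, -2.13 and -0.77 in KO. The endothelial list split by genotype, with means of 0.16, 0.62 and 0.30 in WT and -0.51, -0.52, -0.23 and -0.13 in KO. As in the adipocyte and muscle lists, KO animals 8 and 10 had the lowest means. They were the lowest for 60.0% and 40.0% of endothelial genes (against 23.4% and 8.88% of all genes). WT animal 3 was the highest for 86.7% (against 12.2%). All 15 endothelial genes had an unadjusted limma p under 0.05, lower in KO (against 5.94% of all genes). In 13 of them the groups do not overlap (86.7% against 5.14%), while 0 passed the adjusted threshold. Macrophage genes (15, all with negative differences) had means from -0.02 to 0.27 in WT and from -0.51 to 0.01 in KO, and fibroblast genes (14, all negative) from -0.21 to 0.47 and from -0.47 to -0.04. Most of both lists were lowest in KO animal 11 (10 and 9 genes, 66.7% and 64.3%, against 22.5% of all genes). That animal was lowest for 2 of the adipocyte genes (6.45%). Sebaceous gland genes (12, 1 of them also among the adipocyte genes) ran from -0.22 to 0.12 in WT and from -0.23 to 0.39 in KO. Keratinocyte genes (14) ran from -0.33 to 0.08 and from -0.57 to 0.37. The values are centred, so no marker can be said to be at 0, and the part of these cells in the adipocyte values was not tested.

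**Figure D3:**
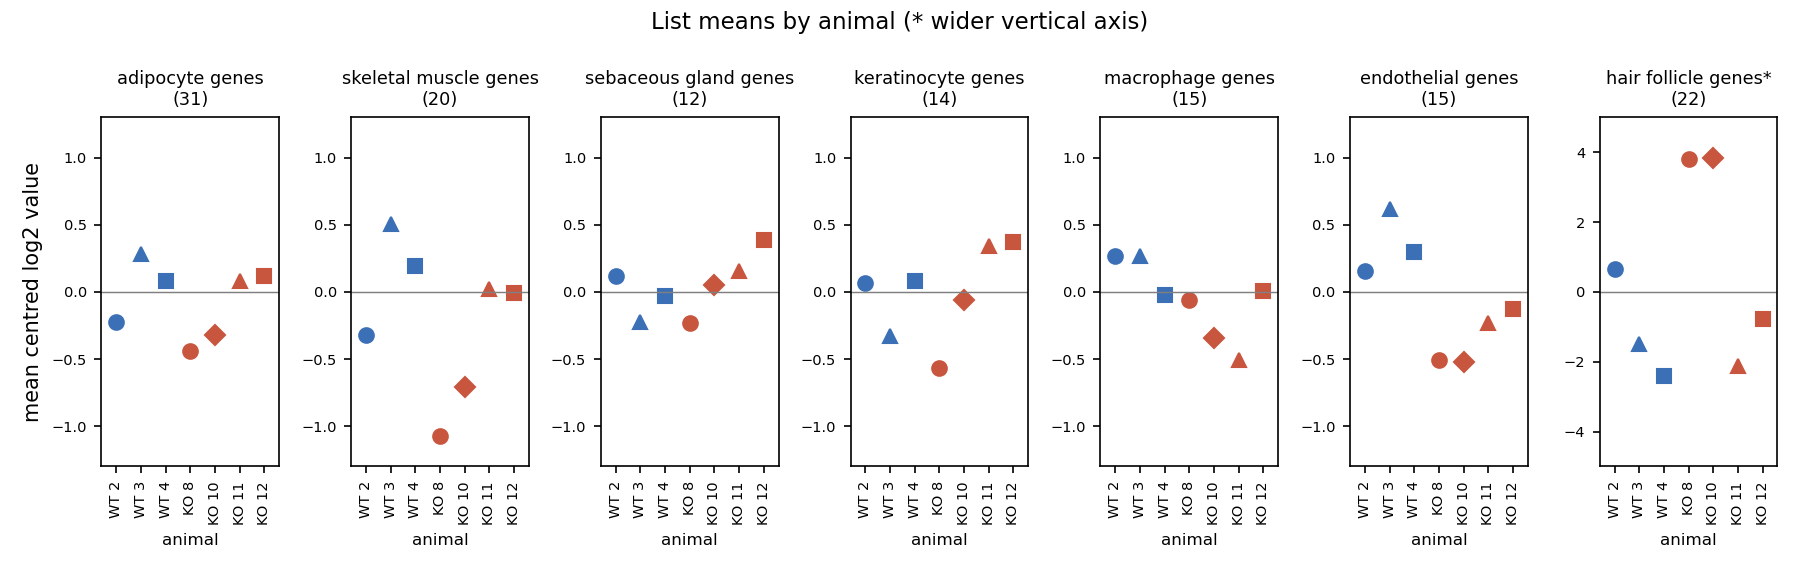
Mean centred log2 value (vertical axis) of 7 gene lists in each animal, blue for WT and red for KO, with the number of genes in brackets. The hair follicle panel has a wider axis. KO animals 8 and 10 are lowest for adipocyte, muscle and endothelial genes and highest for hair genes.

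Hormones came out differently from each other. Adipoq, which encodes adiponectin, a hormone that raises insulin sensitivity, was at -0.61, 1.13 and -0.06 in WT animals 2, 3 and 4 and at -0.43, -0.36, 0.06 and 0.11 in KO animals 8, 10, 11 and 12. Its WT animals spanned 1.73, wider than all KO animals together, and the difference was -0.31 (SE 0.37, 95% interval -1.17 to 0.55, limma adjusted p = 0.867). Without WT animal 3 it was 0.18. Retn, which encodes resistin, had the widest range of all members, 2.30, with -0.65, 1.02 and 0.01 in WT and -0.68, -1.28, 0.19 and -0.01 in KO. KO animal 10 was its lowest animal and WT animal 3 its highest, and the difference of -0.57 had an interval from -1.63 to 0.49. It was -0.12 without WT animal 3, -0.29 without KO animal 10 and -0.96 without WT animal 2. Lep, the gene of the appetite hormone leptin, was at -0.64, 0.24 and -0.23 in WT and 0.28, 0.02, -0.11 and -0.02 in KO. Here KO animal 8 was the highest, not among the lowest, and the difference was 0.25 (SE 0.20, interval -0.22 to 0.72), 0.04 without WT animal 2 and 0.48 without WT animal 3.

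Genes of the droplet coat split in the same manner. Cidec, which fuses lipid droplets into a single large one, was at -0.66, 0.84 and 0.07 in WT and -0.82, -0.59, -0.01 and 0.01 in KO, a difference of -0.44 (SE 0.36, limma adjusted p = 0.800). Without WT animal 3 it was -0.06 and without WT animal 2 -0.81. As for Adipoq, WT animal 3 was on top and WT animal 2 and KO animals 8 and 10 were at the bottom. Plin4, a perilipin of adipocytes and muscle, differed by -0.44 (interval -1.22 to 0.35), by -0.20 without WT animal 4 and by -0.88 without WT animal 2. Cidea, a related protein found in brown fat and sebaceous glands, had the highest difference of the set, 0.39 (SE 0.29, limma adjusted p = 0.776), with 0.33, -0.30 and -0.13 in WT and -0.18, 0.13, 0.44 and 1.03 in KO. Its highest animal was KO 12 and its lowest WT 3, whereas WT 3 was the highest for Cidec. KO 12 was also the highest animal of the sebaceous gland list (0.39), whose part in the value was not tested, and without that animal the Cidea difference was 0.16.

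Uptake genes held 2 of the 4 members with an unadjusted p under 0.05. Angptl4, a secreted inhibitor of lipoprotein lipase, was at 0.08, 0.15 and 0.07 in WT and -0.25, -0.07, -0.54 and -0.31 in KO, so every KO animal lay below every WT animal. The difference was -0.39 (SE 0.13, 1.31-fold lower, unadjusted limma p = 0.0142, adjusted p = 0.475), and the exact two-sided permutation p was 0.0571, the smallest that 35 splits allow. This value rests on 1 probe set of the upper level band, and a second one at a level of 2 to 4 differed by -0.06. Slc2a4, the insulin-responsive glucose transporter of fat and muscle, was at -0.15, 0.44 and 0.48 in WT and -0.75, -0.54, 0.11 and -0.11 in KO. Its groups overlapped through WT animal 2 and KO animals 11 and 12, and the difference was -0.58 (SE 0.24, 1.49-fold lower, unadjusted limma p = 0.0443, adjusted p = 0.592, exact permutation p = 0.171). Both of its probe sets went the same way (-0.52 and -0.64). Without WT animal 3 or 4 or KO animal 8 or 10 the unadjusted limma p was not under 0.05, and without both of those KO animals the difference was -0.26. Slc2a4 is also a muscle gene. Its 3 lowest animals, WT 2, KO 8 and KO 10, were the lowest in the mean of the muscle list and in that of the adipocyte genes alike. The part of muscle in its values was not tested.

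The remaining uptake genes differed by less. Lpl, the lipase that frees fatty acids from circulating lipoproteins, was at -0.11, 0.68 and -0.10 in WT and 0.04, -0.04, -0.37 and 0.56 in KO (difference -0.11, interval -0.72 to 0.50). Its high animals were 1 of each genotype. Fabp4, a fatty acid carrier of adipocytes, macrophages and capillary endothelium, was at -0.83, 0.21 and 0.11 in WT and within -0.11 to 0.03 in all KO animals. WT animal 2 alone stood apart, and the difference was 0.13 (SE 0.24), or -0.20 without that animal. Aqp7, the glycerol channel, differed by -0.08.

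None (0) of the 9 measured genes of triglyceride synthesis had an unadjusted limma p under 0.05, although 7 had negative differences. Dgat2, which adds the last fatty acid, was at -0.02, -0.36 and 0.03 in WT and -1.32, -0.73, 0.18 and 0.06 in KO. KO animals 8 and 10 were far below all others and KO animals 11 and 12 above every WT animal, so the difference of -0.34 (SE 0.35) became 0.23 without animals 8 and 10. Agpat2 (difference -0.24) and Pcx (-0.24), which act in the same pathway and in its supply of carbon, likewise had KO animal 8 as their lowest and KO animal 12 as their highest. Gpd1, which makes the glycerol backbone, differed by -0.50 (SE 0.29, exact permutation p = 0.286), by -0.29 without WT animal 3 or KO animal 8. Its 4 probe sets disagreed, from -0.63 to 0.18, and their mean differed by -0.25. Lpin1, the phosphatidate phosphatase of fat and muscle, differed by -0.55 (SE 0.27, exact permutation p = 0.171), by -0.27 without WT animal 4 and by -0.28 without KO animals 8 and 10. Pck1, the enzyme of glyceroneogenesis, was at -0.84, 0.81 and 0.11 in WT and -0.46, -0.49, 0.16 and -0.11 in KO (difference -0.25, SE 0.36, or 0.14 without WT animal 3). As for Adipoq, WT animals held both ends, animal 3 the highest and animal 2 the lowest. Acly, which makes cytosolic acetyl-CoA (0.14), Pnpla3 (0.14) and Thrsp, a regulator of lipogenesis (-0.15), differed by small amounts.

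In lipolysis, only Pde3b had an unadjusted limma p under 0.05. Pde3b, the phosphodiesterase through which insulin restrains lipolysis, was at 0.16, 0.54 and 0.07 in WT and -0.27, -0.33, -0.29 and -0.07 in KO. All 4 KO animals lay below all 3 WT animals, the difference being -0.50 (SE 0.14, interval -0.81 to -0.18, 1.41-fold lower). Its unadjusted limma p was 0.00666 and its adjusted p = 0.412, and the exact permutation p was again 0.0571. Over 16 alternatives the difference stayed between -0.59 and -0.36, with adjusted p from 0.122 to 0.898. The enzymes themselves did not follow it. Pnpla2, the lipase of the first step, was at -0.28, 0.02 and -0.02 in WT and -0.95, -0.55, 0.12 and 0.16 in KO (difference -0.21, SE 0.27), and its second probe set differed by 0.12. Lipe, the hormone-sensitive lipase, was at -0.53, 0.35 and 0.17 in WT and -0.62, -0.33, 0.05 and -0.05 in KO (difference -0.23, SE 0.24). Both were lowest in KO animal 8, without which the differences were 0.0029 for Pnpla2 and -0.10 for Lipe, and Lipe was at -0.06 without WT animal 3. Mgll, the lipase of the last step, was at 0.23, -0.17 and 0.09 in WT and -0.47, -0.12, 0.41 and 0.84 in KO, so that the KO group held both its lowest and its highest animals (difference 0.11, interval -0.57 to 0.79).

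Transcription factors of fat cells were centred near no difference, with wide spread in KO. Pparg was at -0.10, 0.23 and -0.03 in WT and -0.27, -0.08, 0.03 and 0.61 in KO (difference 0.04, interval -0.44 to 0.52). Cebpa was at 0.01, -0.33 and 0.18 in WT and -0.81, -0.27, 0.39 and 0.38 in KO (difference -0.03, interval -0.73 to 0.66). Its SD was 0.26 in WT and 0.58 in KO, and without KO animals 8 and 10 its difference was 0.43 (limma adjusted p = 0.617). Both factors are also made by sebaceous and epidermal cells, whose lists were lowest in KO animal 8 among the KO animals. The sebaceous list shares 1 gene with the adipocyte genes, so the 2 are not fully separate, and the part of those cells was not tested.

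Of the other adipocyte genes, Sncg, which encodes γ-synuclein of fat cells and peripheral neurons, had an unadjusted limma p of 0.0233 (difference -0.54, SE 0.19, 1.45-fold lower, adjusted p = 0.503). It was at -0.09, 0.31 and 0.35 in WT and -0.64, -0.39, -0.43 and 0.09 in KO, and only KO animal 12 reached into the WT range. Without WT animal 3 or 4 or KO animal 8, 10 or 11 its unadjusted limma p was not under 0.05. Ucp1, the uncoupling protein of brown and beige fat, did not lean either way (difference -0.01, interval -0.49 to 0.47). Mrap, an adaptor of the ACTH receptor (-0.22), Adig (-0.11) and Acvr1c, a receptor of the activin family (0.14), had intervals that include 0. For Mrap the 2 probe sets disagreed, at -0.51 and 0.07.

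**Figure D4:**
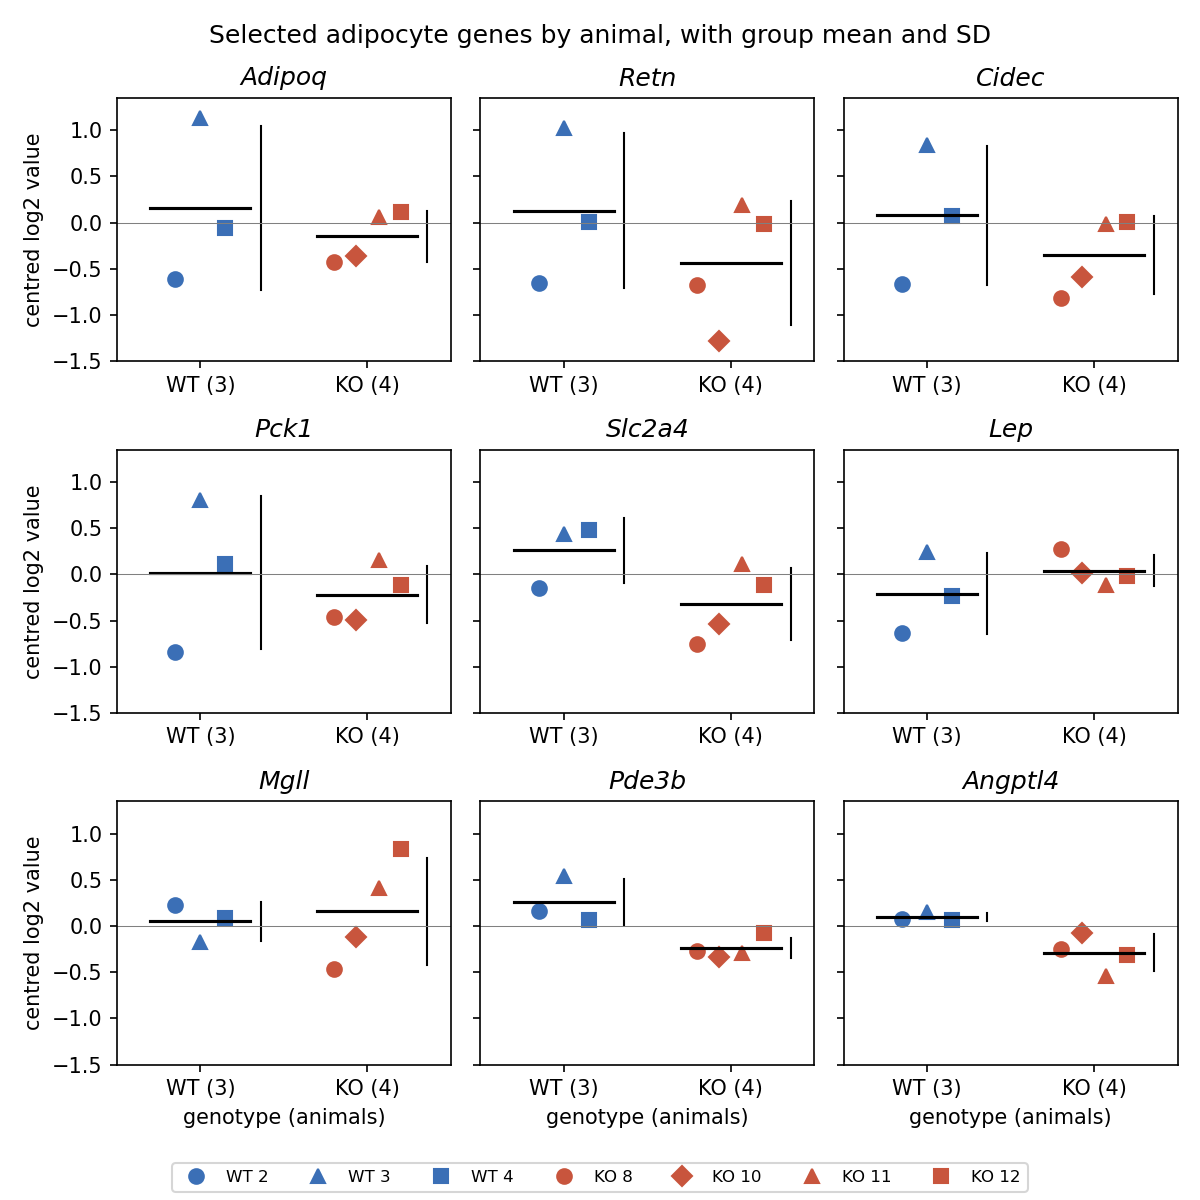
Centred log2 value (vertical axis) of 9 adipocyte genes in the 3 WT (blue) and 4 KO (red) animals, chosen for display after their values were seen, with a horizontal bar at each group mean and a vertical line of 1 SD either way. WT animal 3 is highest for Adipoq, Retn, Cidec and Pck1, KO animals 8 and 12 are highest for Lep and Mgll, and only Pde3b and Angptl4 have groups that do not overlap.

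On chromosome 7, the chromosome of the targeted gene, lie 6 members: Cebpa, Dgat2, Lipe, Pde3b, Pnpla2 and Thrsp. All 6 had negative differences (median -0.22), as had 17 of the 25 others (median -0.22). None is close to Mfge8. In RefSeq GRCm38.p6, Thrsp is separated from it by 140 protein-coding genes, Dgat2 by 161, Cebpa by 352, Pde3b by 519, Lipe by 590 and Pnpla2 by 869. Thrsp was at -0.12, 0.74 and -0.26 in WT and -0.19, -0.27, 0.27 and 0.06 in KO, with WT animal 3 alone high. Its 3 probe sets differed by -0.30, -0.28 and 0.13.

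Of 39 further genes of fat cell metabolism, 27 had negative differences (69.2%, against 49.1% of all genes), with a median of -0.15. None (0) passed the adjusted limma threshold, 5 were lower at an unadjusted p under 0.05 (12.8% against 5.94% of all genes) and 0 higher (against 2.27%). KO animal 8 was the lowest for 43.6% of them, KO animal 10 for 23.1% and WT animal 2 for 5.13%. The smallest p-values belonged to Hp, which encodes the acute-phase protein haptoglobin (difference -1.09, SE 0.28, limma adjusted p = 0.375), to Nnmt, a nicotinamide methyltransferase (-0.70, SE 0.20, limma adjusted p = 0.428), and to G0s2, an inhibitor of the first lipase of lipolysis (-0.67, SE 0.21, limma adjusted p = 0.465). In all 3 the groups do not overlap, as in 4 of the 39 in this direction (10.3% against 5.14% of all genes). Hp was at 0.07, 1.32 and 1.10 in WT and at -0.10, -0.41, -0.07 and -0.47 in KO. WT animal 2 was the lowest WT animal there too.

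Among 22 regulators of adipogenesis, 1 of them also among the adipocyte genes above, 14 had negative differences (median -0.16). At an unadjusted limma p under 0.05, 3 were lower (13.6% against 5.94% of all genes) and 1 higher (4.55% against 2.27%), with 0 past the adjusted limma threshold. Cebpd, an early C/EBP factor that is also induced in inflammation, was at 0.30, 0.27 and 0.64 in WT and -0.26, -0.26, 0.01 and -0.28 in KO (difference -0.60, SE 0.13, limma adjusted p = 0.299). Gata3, which restrains preadipocyte differentiation and also acts in epidermis, hair follicles and T cells, was higher by 0.61 (SE 0.18, limma adjusted p = 0.465), with -0.10, -0.66 and -0.05 in WT and 0.05, 0.54, 0.48 and 0.28 in KO. Lpin2 was lower by -0.43 (SE 0.14, limma adjusted p = 0.477). The groups of these 3 genes do not overlap, which over the list holds for 3 genes lower in KO (13.6% against 5.14% of all genes) and 1 higher (4.55% against 3.31%).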

How the data were processed

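Total RNA was labelled with biotin and hybridised to 1-colour arrays, per the labels. The submitters' processing notes name GCRMA. The deposited values were read as log2 values centred per probe set, which the sources used here do not state. The log base was taken as 2 and the version and further steps are not given in the sources used here. In 72.4% of probe sets a middle pair of values mirrored each other around 0 (tolerance 1e-06), so an array outside the 7 entered the centring.

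Of 45101 probe sets 64 controls were left out. The annotation gave 1 symbol to 34945, several to 932 and none to 9160. Probe sets with 1 symbol were averaged per gene within the gene's top level band, since the planned choice by mean level could not be made. Groups were compared with limma 3.58.1 in R 4.3.3 (lmFit, eBayes, no covariates), with Benjamini-Hochberg adjustment over 18193 genes. The exact permutation test was two-sided. On simulated gene values, 65% of genes given a log2 change of 1 were recovered, 91% at a change of 2, and 6% of calls were false. The changed genes were drawn at random from all genes, with independent noise per gene. The median within-group SD was 0.19 over all genes and 0.39 over the members, so these rates do not hold for the members. Older symbols of 3 list genes were updated through RefSeq.

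Members and lists were chosen with earlier results of these data known, so lists get counts and medians beside all genes and no p. Most genes with values per animal were named by a fixed rule. It took 16 chosen symbols, of which 13 were measured, and members with an unadjusted p under 0.05 or groups that do not overlap. It also took members on chromosome 7 and up to 3 genes per other list. The values of Mfge8, Cidea and Mgll per animal and the difference of Dio2 were given outside that rule. Nothing in the labels says that litters, days or batches were shared, and each animal counts as 1 replicate. Alternatives were quantile normalization, median subtraction, other eBayes settings, array weights, other probe sets and leaving out animals. Computation used Python 3.11.15, pandas 2.3.3, numpy 2.4.6 and matplotlib 3.10.9.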

Additional observations from a re-analysis of the deposited data

How the results depend on the processing

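No paired analysis was possible because the groups share no animal numbers. Under each of the 16 alternatives 0 members passed the adjusted threshold. Members lower at an unadjusted p under 0.05 numbered 2 to 9 over fits without 1 animal (9 without WT animal 2, against 4.24% of all genes, and 2 when WT 3 (against 3.7%), WT 4 (7.54%), KO 8 (5.61%) or KO 10 (4.02%) was left out) and 2 without KO animals 8 and 10 (against 4.72%). Members higher numbered 0 to 1 over the fits without 1 animal (Lep without WT animal 3) and 3 without KO animals 8 and 10 (Cebpa, Cidea and Mgll). The share of all genes was not tabulated for these counts of higher members, so they are not read as a result about the members. Angptl4 and Pde3b kept an unadjusted p under 0.05 without each animal in turn, and Angptl4 lost it without _x_at, _s_at and _a_at probe sets. Groups that do not overlap, lower in KO, were counted for 2 to 10 members without 1 animal (10 without WT animal 2, where 8.67% of all genes do so) and for 1 without those probe sets. Higher in KO they were 0 to 2 without 1 animal (2 without WT animal 3, where 7.94% of all genes do so). Without KO animals 8 and 10 they were 6, where 13.9% of all genes do so. The median difference was -0.31 to -0.06 without 1 animal and 0.04 without KO animals 8 and 10.

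Without 1 animal the sign of the difference changed for Adipoq (-0.69 to 0.18), Lpl (-0.28 to 0.15), Fabp4 (-0.20 to 0.33), Aqp7 (-0.28 to 0.07), Pck1 (-0.68 to 0.14), Thrsp (-0.34 to 0.16), Pnpla2 (-0.37 to 0.0029), Mgll (-0.11 to 0.33), Pparg (-0.14 to 0.15), Cebpa (-0.19 to 0.21), Ucp1 (-0.17 to 0.11) and Adig (-0.28 to 0.01), none of which had an unadjusted p under 0.05 over all 7 animals. It changed for Aqp7 (0.03), Mgll (-0.04) and Pparg (-0.01) with array weights. It changed for Dgat2 (0.23), Agpat2 (0.20), Pck1 (0.0014), Pcx (0.23), Thrsp (0.04), Lipe (0.01), Pnpla2 (0.23), Cebpa (0.43), Ucp1 (0.06) and Adig (0.24) without KO animals 8 and 10. It changed for Pnpla2 (0.12) without _x_at, _s_at and _a_at probe sets. It changed for Cebpa (0.02) with quantile normalization. The cause of these changes was not tested. With 7 arrays, 95% intervals reach beyond a 2-fold change for 10 members.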

Other observations

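Of 9 measured markers of fat cell precursors 8 had negative differences (88.9%, against 49.1% of all genes, median -0.25), with 0 past the adjusted limma threshold and 2 lower at an unadjusted p under 0.05 (22.2% against 5.94%). These were the adhesion molecule Icam1, at 0.53, 0.10 and 0.39 in WT animals 2, 3 and 4 and -0.10, -0.23, -0.15 and -0.05 in KO animals 8, 10, 11 and 12 (difference -0.47, SE 0.12, limma adjusted p = 0.381), and the PDGF receptor Pdgfra (difference -0.62, SE 0.21, limma adjusted p = 0.490). Pdgfra was at 0.39, 0.14 and 0.03 in WT and -0.03, -0.46, -0.94 and -0.28 in KO, so KO animal 11 was the lowest here. Among the adipocyte genes KO animal 11 was the lowest for 6.45% (against 22.5% of all genes). There KO animal 8 was the lowest most often (45.2% against 23.4%), followed by WT animal 2 (19.4% against 11.5%). Pdgfra also marks fibroblasts in general, and Dlk1, a marker of early preadipocytes, differed by -0.25 (limma adjusted p = 0.745).

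Of 11 genes typical of brown fat, 2 of which (Ucp1 and Cidea) are also among the adipocyte genes above, 8 had negative differences (72.7% against 49.1% of all genes, median -0.13), with 3 lower at an unadjusted limma p under 0.05 (27.3% against 5.94%). Cox7a1 (difference -0.75, SE 0.23, groups that do not overlap) and Cox8b (-0.64, SE 0.27, groups that overlap) encode respiratory chain subunits that skeletal muscle shares. Both were lowest in KO animal 8, as were the muscle list mean and 45.2% of the adipocyte genes (against 23.4% of all genes). The part of muscle in these values was not tested. Lhx8, a factor of brown fat, differed by -1.28 (SE 0.43, limma adjusted p = 0.484), with 1.98 in WT animal 3 and 0.91 in WT animal 4 against -0.08 in WT animal 2 and -0.56 to 0.08 in KO. Of the defining genes, Ucp1 differed by -0.01, Cidea by 0.39 and Dio2, a deiodinase that activates thyroid hormone, by -0.13 (limma adjusted p = 0.768). The groups of Dio2 do not overlap only by less than the rounding, with 0.09 in both WT animal 4 and KO animal 11. Over the list, groups do not overlap for 2 genes lower in KO (18.2% against 5.14% of all genes) and 0 higher (against 3.31%).

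In the other skin lists 0 genes passed the adjusted limma threshold. The smallest adjusted p-values of the endothelial and macrophage lists were those of Ecscr (difference -0.95, limma adjusted p = 0.0866) and Itgam (-1.36, limma adjusted p = 0.195).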
